A study of Mus musculus with 12 samples.

Results

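Oxidative phosphorylation subunits are the nuclear-encoded proteins of the mitochondrial respiratory chain (complexes I to IV) and of ATP synthase (complex V). They were chosen here by symbol, as the platform genes whose names begin with the Nduf, Sdh, Uqcr, Cox4 to Cox8 and Atp5 stems, with each gene read by its probe set of highest mean over the 12 arrays. This gave 79 of 17097 genes, of which 34 fell under complex I, 4 under complex II, 7 under complex III, 17 under complex IV and 17 under complex V. A probe set was tested if 3 or more arrays lay above a log2 level of 2.77, which is the 40th percentile of the deposited values. That left 77 members among 12488 tested genes, and the 2 left out by this filter were Cox7b2, a testis-type chain of cytochrome c oxidase, and Ndufa4l2, a paralogue of Ndufa4.

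The arrays compared bone marrow-derived macrophages of C57BL/6 mice with and without entry into tumour spheres made from TT9423, a mouse neuroblastoma cell line. The groups were macrophages inside spheres at 24 h, macrophages outside the spheres of the same cultures at 24 h, macrophages inside at 48 h and macrophages outside at 48 h, with n = 3 independent experiments each and cells pooled over several wells. All groups were therefore co-cultured with the tumour line, and no macrophages kept without spheres were analysed here. In-sphere cells were freed by enzymatic digestion and picked on CD11b magnetic columns, and the sources used here do not say whether the outside cells were digested and selected likewise. The protocol text on every sample describes 24 h of co-culture, so the 48 h time rests on the titles and the time label.

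Complex I takes electrons from NADH and complex II takes them from succinate, being also the succinate dehydrogenase of the tricarboxylic acid cycle. Complex III passes them through cytochrome c to complex IV, which reduces oxygen, and complex V makes ATP from the proton gradient that the chain builds. Macrophages are known to lean on oxidative phosphorylation in alternative activation and on glycolysis in classical activation, and low oxygen is known to limit entry of pyruvate into mitochondria and to exchange some chain subunits for other isoforms.

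The arrays' medians over all probe sets ran from 3.03 to 3.17, and correlations between arrays ran from 0.932 to 0.994. In-sphere replicate 3 at 48 h stood apart, with a median tested gene of 5.20 against 5.55 to 5.69 in the other 11 arrays and the lowest array weight, 0.235. The number of arrays limits the precision. In bulk RNA of pooled cells, fewer cells of a type and less RNA per cell cannot be told apart. All 9 macrophage markers tested exceeded the filter level in every array, with a mean level of 9.92 to 10.37 in spheres and 10.04 to 10.31 outside at 24 h, and of 10.16 to 10.22 in spheres and 10.16 to 10.30 outside at 48 h. By the test given below, 1 of these markers was higher and 2 lower at 24 h, and 2 were higher and 3 lower at 48 h. That is 33.3% and 55.6%, beside 29.4% and 37.5% of all tested genes, so the share at 24 h was near the background. Among the markers called were Cd14, a receptor for bacterial products (0.54 and 1.09), and Mertk, a receptor for dying cells (-0.91 and -1.25).

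Most subunit genes did not pass the test in either comparison. With limma's moderated test and Benjamini-Hochberg adjustment over all tested genes (adjusted p under 0.05), 7 of 77 members were called in spheres against outside at 24 h, which is 9.09%, while 29.4% of all tested genes were called. At 48 h, 8 of 77 were called, or 10.4%, while 37.5% of all tested genes were called. Among the 67 members with a mean level of at least 8, 6 were called at each time (8.96%), against 39.1% of the 2199 tested genes as bright at 24 h and 47.2% at 48 h. At 24 h, 5 members were higher and 2 lower, where the background was 15.8% higher and 13.6% lower. At 48 h, 2 were higher and 6 lower, where the background was 15.2% higher and 22.3% lower. The calls at 24 h and 48 h shared 3 genes, 12 members were called at either time and 65 at neither.

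The differences of the uncalled members were bounded by their intervals. The 95% confidence interval of the log2 difference lay within 1 on either side of 0 for 76 of 77 members at each time, the exception being Cox7a1, and within 0.5 for 62 members at 24 h and 53 at 48 h. The median absolute log2 difference of members was 0.108 at 24 h and 0.119 at 48 h, beside 0.262 and 0.323 over all tested genes. Standard errors of the members had a median of 0.119, beside 0.163 over all tested genes. In-sphere and outside arrays did not overlap for 20 members at 24 h (26.0%) and 32 at 48 h (41.6%), beside 43.4% and 51.6% of all tested genes.

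**Figure D1:**
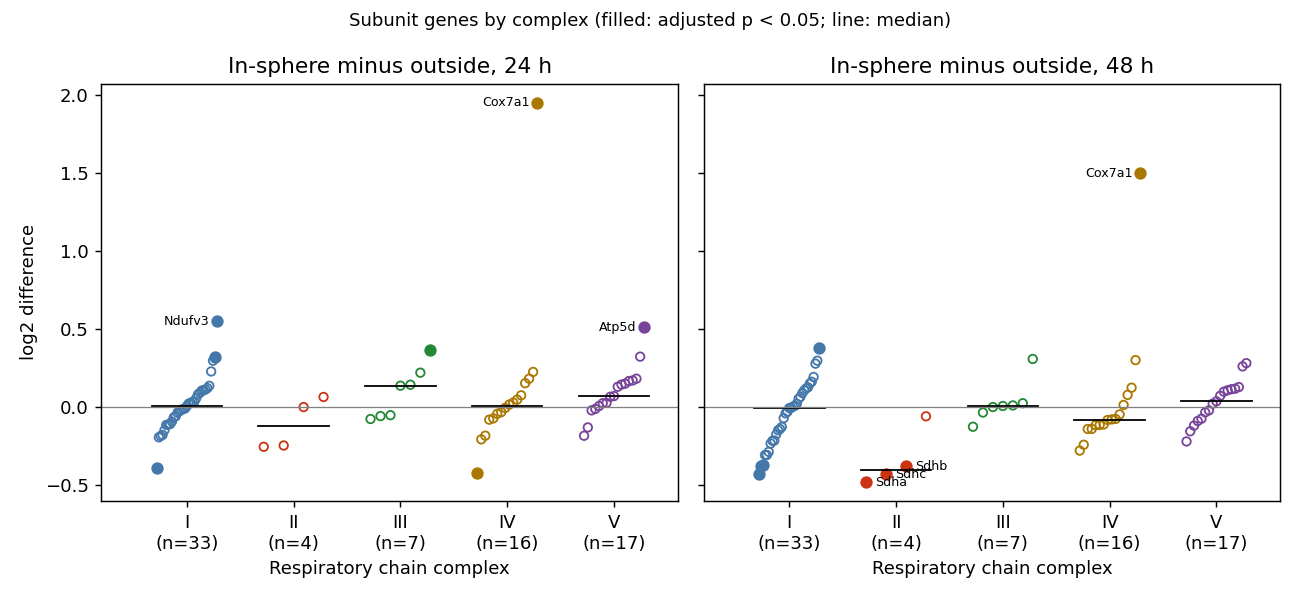
Log2 difference in spheres minus outside (vertical axis) of each tested subunit gene, grouped by complex (horizontal axis), at 24 h (left) and 48 h (right). Filled points passed an adjusted p of 0.05, open points did not, and each line is the median of a complex. Cox7a1 stands far above the rest at both times, at 1.95 and 1.50, and at 48 h 3 of the 4 complex II genes are filled and lie below 0.

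The share of calls at 48 h depended on the scaling of the arrays. Centring each array on the median of its tested genes moved the median 48 h difference of all tested genes to 0.017 from -0.10, and the members' calls became 6 higher and 0 lower in place of 2 and 6. The share of higher genes among all calls at 48 h was then 51.4%, against 40.6% with the deposited scaling. Centring shifts all genes of an array alike. In-sphere replicate 3 at 48 h deviated by a median of -0.22 over all tested genes, but by -0.075 over the members. With the deposited scaling, the median 48 h difference of tested genes with a mean of at least 8 was -0.027. Leaving out in-sphere replicate 3 gave 3 higher and 3 lower members with the deposited scaling, and 1 higher and 5 lower after centring. A new quantile normalisation of the deposited values, added after seeing the data, gave 3 higher and 6 lower members. Centred values are therefore given beside the 48 h calls of subunit genes below, where each is a difference relative to the median tested gene of the array.

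Complex I was represented by 33 tested genes, of which 2 were higher and 1 lower at 24 h, and 1 was higher and 3 lower at 48 h. Their median log2 difference was 0.0074 at 24 h and -0.0051 at 48 h, beside -0.0068 and -0.10 over all tested genes. None of the calls was one of the core catalytic subunits analysed.

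Ndufv3, an accessory subunit of the flavoprotein part that binds NADH, was higher in spheres at both times. Its log2 levels at 24 h were 10.97, 10.61 and 10.71 in spheres, against 10.24, 10.36 and 10.03 outside. At 48 h they were 10.70, 10.60 and 10.58 in spheres, against 10.29, 10.31 and 10.15 outside. In-sphere arrays lay above all outside arrays at each time, and the difference had the same sign in 3 of 3 replicate numbers. The log2 difference was 0.55 ± 0.13 (SE) at 24 h and 0.38 ± 0.13 at 48 h, a 1.46-fold and 1.30-fold higher level, with limma adjusted p = 0.00624 and 0.0338. The 24 h call held under each array left out, whereas the 48 h call was lost without in-sphere replicate 1 (adjusted p = 0.0917) or 2 (0.0640), or without outside replicate 1 (0.0665), 2 (0.0576) or 3 (0.119) of that time. After centring, the 48 h difference was 0.50. Centred without in-sphere replicate 3 of 48 h, it was 0.37 and did not pass (limma adjusted p = 0.0679).

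Ndufc1, an accessory subunit of the membrane arm, was higher in spheres at 24 h. It had levels of 10.42, 10.31 and 10.22 in spheres, against 10.03, 10.05 and 9.91 outside. The difference was 0.32 ± 0.11 (SE) with limma adjusted p = 0.0401, and the call was lost in 9 of the 12 fits that left out an array, with adjusted p up to 0.129. Those 9 left out each 24 h array except in-sphere replicate 3, each outside array at 48 h, or in-sphere replicate 2 at 48 h. At 48 h, Ndufc1 differed by 0.28 (95% confidence interval 0.045 to 0.51) and did not pass (limma adjusted p = 0.0588). That difference passed in 7 of 24 alternatives, among them centring (0.40, adjusted p = 0.0270). It did not pass when centred without in-sphere replicate 3 of 48 h.

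The lower complex I genes were small accessory genes. Ndufa1, a subunit needed to assemble the complex, had levels of 10.43, 10.43 and 10.30 in spheres at 48 h, against 10.78, 10.83 and 10.83 outside. The groups did not overlap, and the difference was -0.43 ± 0.10 (SE) with limma adjusted p = 0.00581, kept under each array left out and lost after centring (-0.31, adjusted p = 0.0818). Centring without in-sphere replicate 3 kept the call (-0.42, adjusted p = 0.0148). At 24 h it differed by -0.11 (95% confidence interval -0.33 to 0.11).

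Ndufa4 was first assigned to complex I and is now known as a subunit of cytochrome c oxidase. It had levels of 10.14, 10.04 and 10.00 in spheres at 48 h, against 10.33, 10.44 and 10.55 outside. The difference was -0.38 ± 0.12 (SE) with limma adjusted p = 0.0255, lost without in-sphere replicate 2 (adjusted p = 0.0632) or 3 (0.0617), without outside replicate 2 (0.0641) or 3 (0.102), and after centring (-0.26, adjusted p = 0.183). It passed when centred without in-sphere replicate 3 (-0.38, adjusted p = 0.0429). At 24 h, its in-sphere and outside arrays overlapped and the difference was -0.18.

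Ndufa4l2, which low oxygen is known to induce in other cells and which can take the place of Ndufa4, stayed near the filter level. It exceeded that level in 1 of 3 in-sphere arrays and 0 of 3 outside arrays at 24 h, and in 0 of 3 in-sphere and 1 of 3 outside arrays at 48 h. Its log2 levels at 24 h were 3.05, 2.75 and 2.73 in spheres, against 2.46, 2.63 and 2.67 outside, and the filter left it out of the test.

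Ndufs5-ps, which RefSeq lists as a transcribed pseudogene of Ndufs5, was called lower at both times. Its levels at 24 h were 9.13, 9.15 and 8.93 in spheres, against 9.48, 9.62 and 9.28 outside. At 48 h they were 9.26, 9.16 and 9.14 in spheres, against 9.70, 9.43 and 9.54 outside. The groups did not overlap, with differences of -0.39 ± 0.12 (SE) at 24 h and -0.37 ± 0.12 at 48 h and limma adjusted p = 0.0337 and 0.0343. The call at 24 h was lost without replicate 3 in spheres (adjusted p = 0.105) or outside replicate 1 (0.0894) or 2 (0.127) of that time, or outside replicate 3 of 48 h (0.0506). At 48 h it was lost without in-sphere replicate 2 (0.0809) or 3 (0.0769), without outside replicate 1 (0.130) or 3 (0.0785), and after centring (-0.25, adjusted p = 0.207), and passed when centred without in-sphere replicate 3 (-0.38, adjusted p = 0.0470). Another probe set of Ndufs5-ps differed by -0.20 at 24 h and -0.33 at 48 h. It passed at neither time (limma adjusted p = 0.279 and 0.0621 over 20235 probe sets). Because a pseudogene resembles its parent, its signal cannot be assigned to one of them, and Ndufs5 itself was not analysed here.

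The catalytic core of complex I did not pass the test. Ndufs1, the iron-sulfur subunit that carries electrons from the flavoprotein part, averaged 7.96 ± 0.12 in spheres and 7.98 ± 0.054 outside at 24 h, and 7.85 ± 0.087 in spheres and 7.99 ± 0.059 outside at 48 h (SD, n = 3 each). Ndufv1, which holds the NADH site, differed by 0.30 (95% confidence interval 0.0059 to 0.59) at 24 h and by 0.067 (-0.23 to 0.36) at 48 h. Ndufs7, next to the quinone site, differed by 0.024 at 24 h and -0.14 at 48 h. Ndufs8, which holds further iron-sulfur clusters, differed by -0.11 at 24 h and 0.30 (95% confidence interval -0.011 to 0.61) at 48 h. It was called higher at 48 h after centring (0.42, limma adjusted p = 0.0314), but not when centred without in-sphere replicate 3.

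Complex II was the complex with the most negative median at both times, and 3 of its 4 genes were called lower at 48 h. The median log2 difference of its members was -0.12 at 24 h and -0.40 at 48 h. Each array's median deviation of the 4 genes from their means over all arrays was -0.10, -0.17 and -0.28 in spheres at 48 h, against 0.25, 0.17 and 0.10 outside. The groups were thus apart with the deposited scaling. The lowest value came from in-sphere replicate 3, whose median tested gene was 5.20, against 5.61 to 5.63 outside at 48 h. Centring raises that array above outside replicate 3 of 48 h, so the groups were not apart after centring. At 24 h the same deviations were 0.14, -0.13 and -0.081 in spheres, against 0.10, 0.0057 and 0.13 outside, and these groups overlapped.

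Sdha, the flavoprotein that oxidises succinate, had levels of 9.54, 9.33 and 9.39 in spheres at 48 h, against 9.92, 9.86 and 9.92 outside. All 3 in-sphere arrays lay below the outside arrays. The difference was -0.48 ± 0.11 (SE), a level 0.717 times that outside, with limma adjusted p = 0.00503 and a range of -0.54 to -0.43 over the fits that left out an array, all of which kept the call. At 24 h its levels were 9.33, 9.61 and 9.52 in spheres, against 9.80, 9.64 and 9.75 outside, a difference of -0.24 ± 0.11 that did not pass although the groups did not overlap (limma adjusted p = 0.124). A second probe set of Sdha differed by -0.52 at 48 h (limma adjusted p = 0.00621 over 20235 probe sets).

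Sdhb, the iron-sulfur subunit, varied little between replicates, with a group SD of at most 0.075. Its levels were 9.72, 9.71 and 9.58 in spheres at 48 h, against 10.10, 10.03 and 10.02 outside. The difference was -0.38 ± 0.096 (SE) with limma adjusted p = 0.00822, and leaving out any array kept the call. At 24 h the levels were 9.78, 9.77 and 9.84 in spheres, against 10.08, 10.04 and 10.03 outside, which also did not overlap, with a difference of -0.25 ± 0.096 (limma adjusted p = 0.0664). That difference passed in 7 of 24 alternatives, among them the fit without in-sphere replicate 3 of 48 h (limma adjusted p = 0.0444).

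Sdhc and Sdhd are the chains that anchor the enzyme in the inner membrane. Sdhc had levels of 7.57, 7.52 and 7.13 in spheres at 48 h, against 7.86, 7.88 and 7.77 outside, and differed by -0.43 ± 0.15 (SE, limma adjusted p = 0.0408). Its lowest value was in-sphere replicate 3, without which the difference was -0.29 and did not pass (adjusted p = 0.145). The call was also lost without any outside array at 24 h (adjusted p = 0.0524 to 0.0550) or at 48 h (0.0691 to 0.106). Sdhd averaged 5.57 ± 0.19 in spheres and 5.63 ± 0.18 outside at 48 h (SD, n = 3 each), and its difference of -0.058 (95% confidence interval -0.56 to 0.45) turned to 0.060 after centring and to 0.052 without in-sphere replicate 3.

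Centring the arrays kept the sign of Sdha, Sdhb and Sdhc at 48 h and ended their calls, at -0.36 (adjusted p = 0.0586), -0.26 (0.125) and -0.31 (0.108). With in-sphere replicate 3 left out as well, Sdha (-0.50, adjusted p = 0.00674) and Sdhb (-0.37, 0.0164) were called and Sdhc (-0.33, 0.125) was not. The new quantile normalisation kept every array. It too called Sdha (-0.47, limma adjusted p = 0.00377) and Sdhb (-0.37, 0.00465) but not Sdhc (-0.34, 0.0618).

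**Figure D2:**
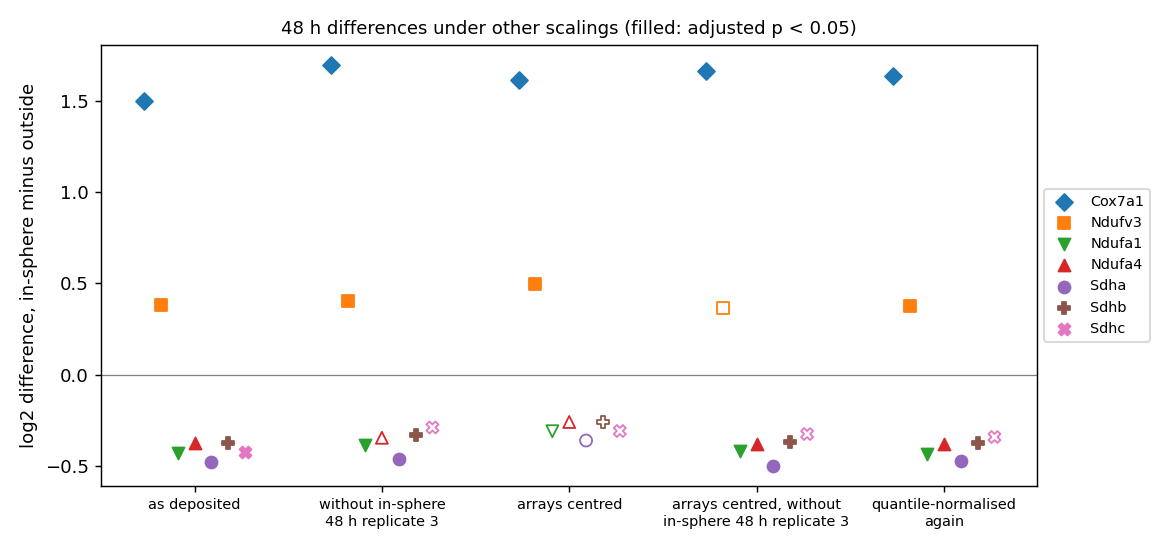
Log2 difference in spheres minus outside at 48 h (vertical axis) of 7 subunit genes called at that time, under the deposited scaling and 4 alternatives (horizontal axis). Filled symbols passed an adjusted p of 0.05. Cox7a1 is filled throughout, and Ndufa1, Ndufa4, Sdha, Sdhb and Sdhc stay below 0 but are all open after centring with every array kept.

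The promoters of Sdha and Sdhb are shown because both genes were lower at 48 h, and each is the window from 250 bases before to 50 after the start in RefSeq's mouse table (GRCm38.p6). Sdha lies on the minus strand at chr13:74350191-74350490, and Sdhb on the plus strand at chr4:140961021-140961320. Capitals in Sdha mark the core of the hypoxia response element (ACGTG), and those in Sdhb mark an ETS family core (CCGGAAG), so the genes shared none of the 4 motifs searched.
Sdha: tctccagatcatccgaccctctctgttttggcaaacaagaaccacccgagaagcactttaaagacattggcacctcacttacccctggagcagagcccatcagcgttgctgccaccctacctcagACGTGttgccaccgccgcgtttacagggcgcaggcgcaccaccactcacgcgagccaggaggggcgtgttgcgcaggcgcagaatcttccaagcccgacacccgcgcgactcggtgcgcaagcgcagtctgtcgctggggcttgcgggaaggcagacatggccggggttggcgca
Sdhb: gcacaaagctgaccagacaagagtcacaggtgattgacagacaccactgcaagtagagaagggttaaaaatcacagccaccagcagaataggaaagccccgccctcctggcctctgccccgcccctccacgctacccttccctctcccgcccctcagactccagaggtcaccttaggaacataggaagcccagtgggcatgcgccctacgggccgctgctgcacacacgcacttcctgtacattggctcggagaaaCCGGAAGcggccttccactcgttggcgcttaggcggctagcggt

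Complex III had 7 tested genes, of which 1 was called at 24 h and 0 at 48 h, where the unadjusted p was under 0.05 for 1 higher and 0 lower genes at 48 h. Their median difference was 0.14 at 24 h and 0.0082 at 48 h. Uqcr11, a small accessory subunit, had levels of 9.82, 9.45 and 9.54 in spheres at 24 h, against 9.30, 9.38 and 9.03 outside. The difference was 0.37 ± 0.13 (SE) with limma adjusted p = 0.0497, just inside the threshold, and it was lost in 9 of 12 fits that left out an array, with adjusted p up to 0.188. Those 9 left out in-sphere replicate 1 or 3 or outside replicate 1 or 3 of 24 h, in-sphere replicate 1 or 2 of 48 h, or any outside array of 48 h. At 48 h the arrays overlapped, at 0.0082 (95% confidence interval -0.27 to 0.29).

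The catalytic and core subunits of complex III were not called. Uqcrfs1, the Rieske iron-sulfur protein, had levels of 9.59, 9.52 and 9.43 in spheres at 48 h, against 9.31, 9.12 and 9.18 outside. This difference of 0.31 (95% confidence interval 0.0044 to 0.61) missed the threshold (limma adjusted p = 0.104), although the groups did not overlap. It passed after centring (0.43, limma adjusted p = 0.0463), but not when centred without in-sphere replicate 3. The core proteins Uqcrc1 and Uqcrc2 differed by -0.075 and -0.056 at 24 h and by -0.12 and 0.012 at 48 h.

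Complex IV held the member with the largest difference of all, Cox7a1, the form of subunit VIIa known from heart and skeletal muscle. Its log2 levels at 24 h were 5.69, 5.41 and 5.82 in spheres, against 3.78, 3.88 and 3.40 outside. At 48 h they were 5.59, 5.40 and 4.90 in spheres, against 3.62, 3.91 and 3.86 outside. Each in-sphere array lay above every outside array, and all 12 exceeded the filter level. The log2 difference was 1.95 ± 0.19 (SE) at 24 h and 1.50 ± 0.19 at 48 h, 3.87-fold and 2.83-fold higher, with limma adjusted p = 2.1e-05 and 8.24e-05. The gene stayed called at both times in all 24 alternatives, and the lowest in-sphere value belonged to replicate 3 of 48 h, without which the 48 h difference was 1.70. After centring, the 48 h difference was 1.62.

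The widely expressed form, Cox7a2, did not pass. At 24 h it had levels of 11.19, 10.81 and 10.84 in spheres, against 10.76, 10.75 and 10.76 outside. The groups did not overlap at either time, yet the difference was only 0.18 (95% confidence interval -0.070 to 0.44) at 24 h and 0.13 (-0.13 to 0.38) at 48 h. Probe sets differ in their response, so the levels of Cox7a1 and Cox7a2 are not set against each other here.

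Cox7a2l, which resembles the VIIa chains and joins complexes III and IV into supercomplexes, moved the other way at 24 h. C57BL/6 mice are known to carry a shortened version of its protein. Its levels were 8.93, 9.21 and 9.11 in spheres at 24 h, against 9.57, 9.54 and 9.41 outside. The groups did not overlap, and the difference was -0.42 ± 0.11 (SE) with limma adjusted p = 0.0103, kept in all 24 alternatives. At 48 h the levels were 9.60, 9.53 and 9.51 in spheres, against 9.67, 9.60 and 9.61 outside, which overlapped (-0.078, 95% confidence interval -0.31 to 0.15). From 24 h to 48 h the in-sphere difference changed by 0.34 (95% confidence interval 0.014 to 0.67) with an unadjusted p of 0.0424 and a limma adjusted p of 0.384, so the difference between the times was not called.

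**Figure D3:**
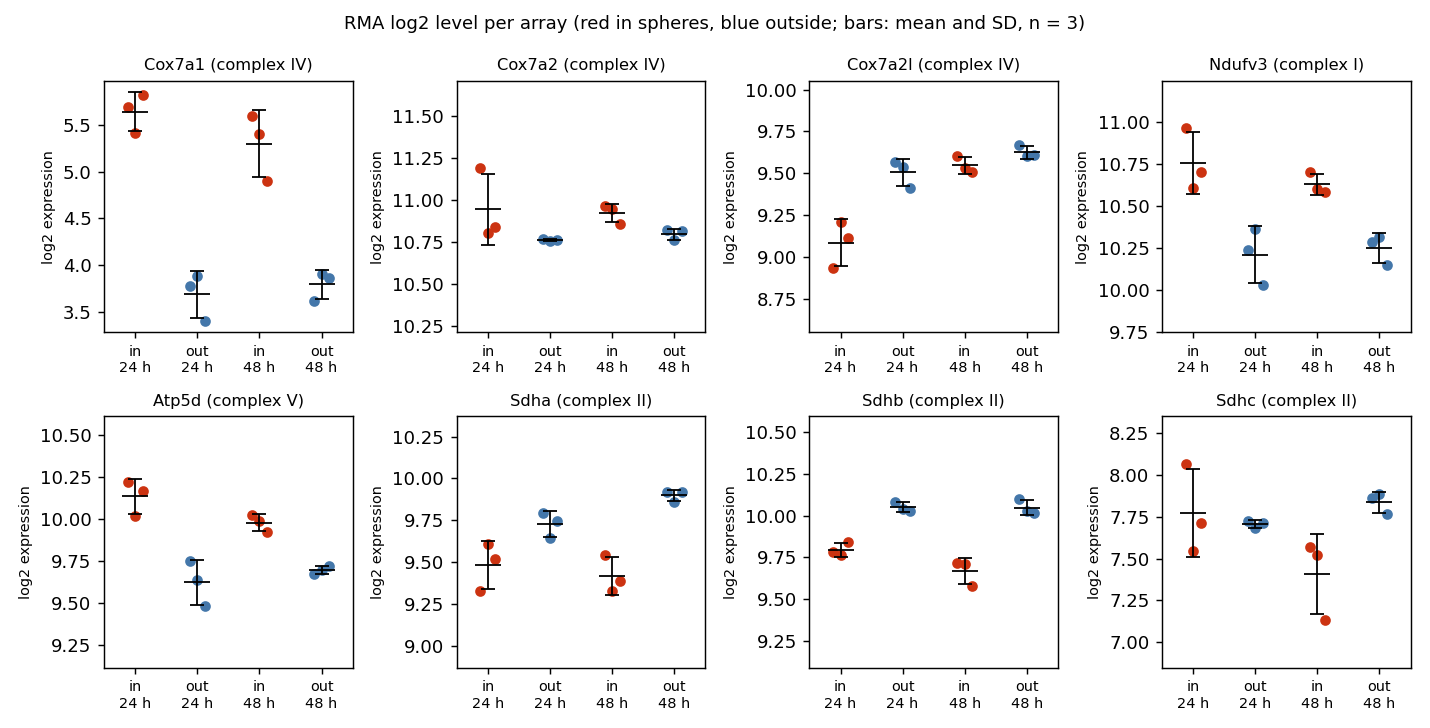
RMA log2 level (vertical axes) on each array for 8 subunit genes, with macrophages in spheres in red and outside in blue at 24 h and 48 h (horizontal axes), and black bars for mean and SD (n = 3). Cox7a1 and Ndufv3 are higher in spheres at both times, Cox7a2l is lower at 24 h, and the in-sphere points of Sdha and Sdhb lie below the outside points at both times, past the threshold at 48 h.

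The promoters of Cox7a1 and Cox7a2 are shown because these isoforms of 1 subunit differed in their response. By RefSeq's mouse table (GRCm38.p6), Cox7a1 lies on the plus strand at chr7:30183921-30184220 and Cox7a2 on the minus strand at chr9:79759804-79760103. Capitals in Cox7a1 mark the reverse complement of the hypoxia response core, and Cox7a2 held none of the 4 motifs in this window.
Cox7a1: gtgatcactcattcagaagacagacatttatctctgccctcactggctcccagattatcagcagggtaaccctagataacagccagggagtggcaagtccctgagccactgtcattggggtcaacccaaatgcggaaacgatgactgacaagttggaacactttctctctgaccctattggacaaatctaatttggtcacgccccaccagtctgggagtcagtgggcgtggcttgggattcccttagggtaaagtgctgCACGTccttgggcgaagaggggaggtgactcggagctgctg
Cox7a2: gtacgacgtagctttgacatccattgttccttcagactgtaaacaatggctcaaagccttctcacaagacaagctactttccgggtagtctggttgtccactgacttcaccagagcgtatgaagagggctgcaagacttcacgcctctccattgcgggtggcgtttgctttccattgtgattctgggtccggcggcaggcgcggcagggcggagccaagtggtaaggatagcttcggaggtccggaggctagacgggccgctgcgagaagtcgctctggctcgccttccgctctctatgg

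Motifs were counted on both strands of these windows as a description. ACGTG was found in 27.0% of the 63 members with a promoter entry, in 28.4% of tested genes and in 21.8% of all genes with an entry. The ETS core CCGGAAG was found in 23.8% of members, 18.5% of tested genes and 9.93% of all genes. The NRF1 core CGCATGCG, named for a factor known to act on respiratory chain genes, was found in 14.3% of members, 3.92% of tested genes and 2.07% of all genes, and the YY1 core AAGATGGC in 15.9%, 5.01% and 3.19%.

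The other isoform pairs of complex IV showed no called member. Cox4i1, the general form of subunit IV, averaged 11.36 ± 0.21 in spheres and 11.31 ± 0.074 outside at 24 h, and 11.34 ± 0.023 in spheres and 11.42 ± 0.064 outside at 48 h (SD, n = 3 each). Cox4i2, the form known to replace it under low oxygen in lung and some cell lines, had levels of 2.75, 2.73 and 3.01 in spheres at 24 h, against 2.58, 2.50 and 2.73 outside. These values were close to the filter level, and the difference was 0.23 (95% confidence interval -0.067 to 0.52) at 24 h and -0.11 (-0.41 to 0.18) at 48 h.

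Cox5a differed by -0.18 at 24 h and -0.11 at 48 h, and Cox5b by -0.079 and -0.14. Cox6a1 and its muscle form Cox6a2 differed by 0.030 and -0.042 at 24 h and by -0.046 and -0.14 at 48 h. Cox6b1 differed by -0.071 at 24 h and by -0.28 (95% confidence interval -0.50 to -0.051) at 48 h, just short of the threshold (limma adjusted p = 0.0533). Its testis form Cox6b2 differed by -0.21 and 0.30, and Cox8a, Cox8b and Cox8c lay between -0.24 and 0.15 at both times.

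Complex V had 17 tested genes, of which 1 was called higher at 24 h and 0 at 48 h, where the unadjusted p was under 0.05 for 1 higher and 0 lower genes. Their median difference was 0.072 at 24 h and 0.038 at 48 h. Atp5d, the delta subunit of the central stalk that turns in the catalytic head, had levels of 10.22, 10.02 and 10.17 in spheres at 24 h, against 9.75, 9.64 and 9.48 outside. At 48 h it had levels of 10.03, 9.99 and 9.92 in spheres, against 9.67, 9.70 and 9.72 outside. The groups did not overlap at either time. The difference was 0.51 ± 0.11 (SE, limma adjusted p = 0.00351) at 24 h, kept in all 24 alternatives, and 0.28 ± 0.11 (limma adjusted p = 0.0564) at 48 h. The 48 h difference passed after centring (0.40, limma adjusted p = 0.0330), but not when centred without in-sphere replicate 3 of that time.

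The catalytic head of complex V did not pass the test. Atp5b, the beta subunit with the catalytic sites, averaged 10.00 ± 0.14 in spheres and 9.86 ± 0.15 outside at 24 h, and 9.89 ± 0.021 in spheres and 9.79 ± 0.072 outside at 48 h (SD, n = 3 each). The 95% confidence interval of the difference of the alpha subunit Atp5a1 ran from -0.22 to 0.28 at 24 h and from -0.23 to 0.27 at 48 h, and that of the gamma subunit Atp5c1 from -0.22 to 0.20 and from -0.14 to 0.29. Among the genes for the rotating c subunit, Atp5g2 differed by 0.32 (95% confidence interval 0.015 to 0.63) at 24 h and 0.26 at 48 h, Atp5g1 by 0.17 and 0.11, and Atp5g3 by -0.020 and 0.12, none of which passed.

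The subunit genes were not called between 24 h and 48 h in either compartment. These values come from the fit without the replicate block. Deviations of outside arrays with the same replicate number correlated at 0.419 to 0.473 between the times, which that fit does not use. Limma called 0 of 77 members for 48 h minus 24 h in spheres, where 0% of all tested genes were called, and the unadjusted p was under 0.05 for 1 higher and 1 lower member. Outside, it also called 0 members, where 0.336% of all tested genes were called, with 1 higher and 1 lower unadjusted. The lowest unadjusted p in spheres belonged to Cox7a2l, at 0.46 ± 0.11 (SE, unadjusted p = 0.000978, limma adjusted p = 0.195). A change of the difference from 24 h to 48 h was called for 0 members and for 0% of all tested genes, while the unadjusted p was under 0.05 for 2 higher and 2 lower members. For Cox7a1 that change was -0.45 (95% confidence interval -1.04 to 0.14), and for Sdhc -0.49 (-0.96 to -0.032, limma adjusted p = 0.371). The calls at 24 h and at 48 h are thus not shown to differ between the times.

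Genes that serve the chain without being its subunits are described by the same counts, beside the 29.4% of all tested genes called at 24 h and 37.5% at 48 h. Of 36 tested assembly factors, 1 was higher and 0 lower at 24 h and 0 were higher and 3 lower at 48 h (2.78% and 8.33% called). Ttc19, which acts on complex III, was higher at 24 h by 0.43 (limma adjusted p = 0.0341). This call was lost in 7 of 23 alternatives, among them those without replicate 2 in spheres (adjusted p = 0.132) or outside replicate 2 (0.122) or 3 (0.0974) of 24 h, and it was 0.12 with the mean of its probe sets. At 48 h, Cox10, which makes the haem of complex IV, was lower by -0.57 (limma adjusted p = 0.0239), Coa5, another complex IV factor, by -0.56 (0.00249) and Atpaf1, a chaperone of complex V, by -0.42 (0.0147). After centring these were -0.45, -0.44 and -0.31, and Atpaf1 no longer passed (adjusted p = 0.0652). Cox10 did not pass when centred without in-sphere replicate 3 of 48 h (limma adjusted p = 0.0624). After the new quantile normalisation, neither Cox10 (0.0536) nor Atpaf1 (0.0536) passed. Cox10 was also lost without replicate 3 in spheres (0.0911) or outside replicate 1 (0.0998) or 3 (0.0503) of 48 h and Atpaf1 without outside replicate 1 (0.0575), while Coa5 was -0.33 and lost with the most variable probe set (0.175). None of the 13 mitochondrially encoded subunits listed was analysed here.

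Electron carriers and quinone enzymes gave 2 higher and 0 lower of 13 at 24 h, and 1 higher and 1 lower at 48 h (15.4% called at each time). The higher genes at 24 h were Coq6, a ubiquinone hydroxylase (0.61, limma adjusted p = 0.0227), and Dhodh, which feeds electrons to ubiquinone from pyrimidine synthesis (0.49, 0.00994). At 48 h Coq2, which attaches the tail of ubiquinone, was higher (0.44, 0.0142) and Pdss2, which makes that tail, lower (-0.58, 0.0121), with centred values of 0.55 and -0.46 that passed. The Coq6 call was lost without in-sphere replicate 1 (0.0869) or 2 (0.0526) or any outside array of 24 h (0.0510 to 0.0605), the Dhodh call with the most variable probe set (0.0690) and the Coq2 call without outside replicate 2 of 48 h (0.0675).

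The tricarboxylic acid cycle list had 6 higher and 1 lower of 17 genes at 24 h, and 5 higher and 2 lower at 48 h. That is 41.2% called at each time, beside 29.4% and 37.5% of all tested genes, so the share at 48 h was near the background. Suclg2, a subunit of the enzyme that makes succinate, averaged 7.81 ± 0.34 in spheres and 6.69 ± 0.12 outside at 24 h, and 7.88 ± 0.14 in spheres and 6.76 ± 0.085 outside at 48 h (SD, n = 3 each), with differences of 1.12 and 1.13 (limma adjusted p = 0.000298 and 0.000185). Idh3a, a subunit of the NAD-linked isocitrate dehydrogenase, was higher by 0.66 and 0.57 and Idh2, the NADP-linked enzyme, by 0.57 and 0.56 (limma adjusted p from 0.00446 to 0.0224). With the mean of a gene's probe sets, the 48 h differences of Idh3a and Idh2 were 0.21 and 0.14 and did not pass, and Idh3a was also lost at 48 h without in-sphere replicate 1 (0.0581) or 2 (0.0581) or outside replicate 2 (0.0714). Mpc1, a chain of the mitochondrial pyruvate carrier, averaged 8.87 ± 0.22 in spheres and 9.95 ± 0.12 outside at 24 h and was lower by -1.08 and -1.09 at 24 h and 48 h (limma adjusted p = 7.76e-05 and 4.31e-05). Ogdh, of the oxoglutarate dehydrogenase, was called lower at 48 h by -0.55 (0.0353), and this call was lost in 10 of 24 alternatives, among them those without in-sphere replicate 2 (0.0647) or 3 (0.132) or any outside array of 48 h (0.0525 to 0.116). After centring, the 48 h differences of Suclg2, Mpc1 and Ogdh were 1.24, -0.98 and -0.43, and all passed, Ogdh narrowly (limma adjusted p = 0.0484). Ogdh did not pass when centred on genes called in no contrast (0.0566) or centred without in-sphere replicate 3 (0.0867).

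Regulators of mitochondrial biogenesis had 2 higher and 0 lower of 16 genes at 24 h and 2 higher and 4 lower at 48 h. The share called was 12.5% at 24 h, under the 29.4% of all tested genes, and 37.5% at 48 h, the same as the background. Myc averaged 8.62 ± 0.24 in spheres and 7.41 ± 0.46 outside at 24 h, with differences of 1.20 at 24 h and 0.88 at 48 h (limma adjusted p = 0.00145 and 0.00725), and Ssbp1, which coats mitochondrial DNA, was higher by 0.39 and 0.48 (0.0282 and 0.00724). The 24 h call of Ssbp1 was lost in 8 of 24 alternatives, among them those without replicate 1 in spheres (0.0937) or outside replicate 1 (0.0858) or 2 (0.0779) of 24 h. With the mean of its probe sets, Ssbp1 was 0.14 and 0.20 and passed at neither time. At 48 h Ppargc1b, a co-activator of respiratory genes, averaged 3.55 ± 0.40 in spheres and 5.01 ± 0.28 outside (SD, n = 3 each), lower by -1.46 (limma adjusted p = 0.000122). Esrra, a nuclear receptor that works with it, was lower by -0.94 (0.0006) and Tfb2m, a mitochondrial transcription factor, by -0.58 (0.0269). After centring these were -1.34, -0.82 and -0.46 and passed. Tfb2m was lost without replicate 3 in spheres (0.102) or outside replicate 2 (0.0926) or 3 (0.0622) of 48 h. It was also lost when centred without in-sphere replicate 3 of 48 h (-0.46, limma adjusted p = 0.0632).

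Targets of low oxygen that act on respiration had 11 higher and 1 lower of 14 genes at each time (85.7% called), with a median difference of 1.29 at 24 h and 1.22 at 48 h. Car9, a carbonic anhydrase, was higher by 2.72 and 1.77, Egln3, an oxygen sensor, by 2.42 and 2.15, and Bnip3, which marks mitochondria for removal, by 2.04 and 1.97 (limma adjusted p from 7.96e-06 to 9.11e-05). Iscu, which builds iron-sulfur clusters, was lower by -0.58 and -0.60 (0.002 and 0.0012).

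**Figure D4:**
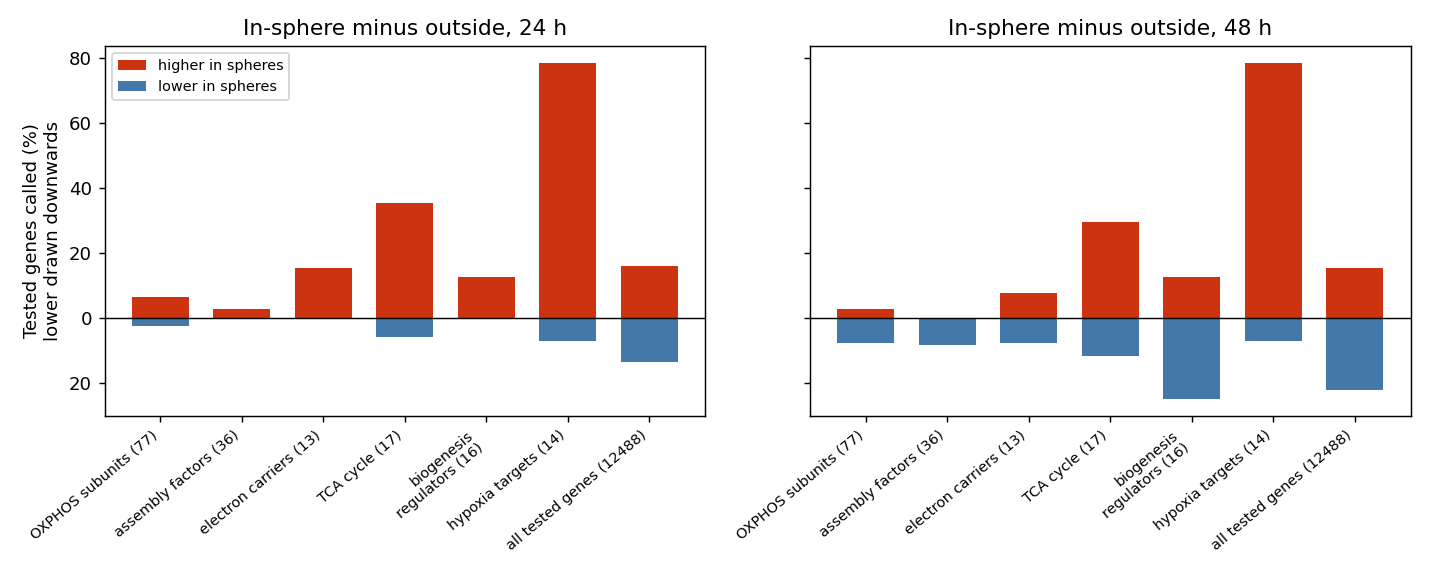
Percent of tested genes called higher (red, upwards) and lower (blue, downwards) in spheres against outside at 24 h (left) and 48 h (right), for the subunit genes, 5 related lists and all tested genes, with the number tested in brackets. The subunit genes have lower shares than all tested genes in both directions and at both times, and the targets of low oxygen have 11 of 14 higher.

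Markers of other cells are given beside the 29.4% of all tested genes called at 24 h and 37.5% at 48 h. Their part in the results for the subunit genes was not tested. Fibroblast markers were called for 5 of 8 genes at 24 h (62.5%, 4 higher and 1 lower) and 6 of 8 at 48 h (75%, 5 higher and 1 lower). Their mean log2 level was 5.15 to 5.84 in spheres and 4.12 to 4.67 outside at 24 h, and 5.52 to 5.72 in spheres and 3.97 to 4.86 outside at 48 h. Col3a1, a collagen chain, differed by 2.64 and 3.28, while the collagen chain Col1a1 was lower by -0.60 and -1.23. The 24 h call of Col1a1 was lost in 11 of 24 alternatives, among them those without any in-sphere array of 24 h (adjusted p = 0.0669 to 0.132), outside replicate 2 of 24 h (-0.32, 0.145), in-sphere replicate 1 or 2 of 48 h (0.0569 and 0.0583) or outside replicate 1 or 3 of 48 h (0.0531 and 0.0601). Neuroblastoma markers had 2 higher of 11 tested at 24 h (18.2%) and 3 higher at 48 h (27.3%), under the background. Their median difference was -0.018 at 24 h and -0.014 at 48 h, so the list did not move as a whole. Their mean level over 14 genes was 3.27 to 3.42 in spheres and 2.96 to 3.07 outside at 24 h, and 3.31 to 3.39 in spheres and 2.81 to 2.85 outside at 48 h. Gap43, of growing neurites, differed by 3.99 and 4.41, while 5 of the 14 genes exceeded the filter level on 0 in-sphere arrays at 24 h, among them Gata3, Chga and Tubb3.

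Granulocyte markers were called lower for 6 of 8 genes at each time (75%), beside 29.4% and 37.5% of all tested genes called. Their mean level was 9.35 to 10.2 in spheres and 10.7 to 11.1 outside at 24 h, and 8.68 to 9.59 in spheres and 10.1 to 10.7 outside at 48 h. Camp, of neutrophil granules, differed by -2.17 and -2.99. The signal of the actin control at its 3' end over its 5' end, a sign of RNA integrity, was 0.35 to 0.60 in spheres and 0.22 to 0.32 outside at 24 h, and 0.39 to 0.42 in spheres and 0.37 to 0.40 outside at 48 h on the log2 scale. The same measure of the Gapdh control overlapped at 24 h, with -0.12 to 0.43 in spheres and -0.043 to 0.17 outside, and was 0.11 to 0.15 in spheres and 0.053 to 0.098 outside at 48 h.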

How the data were processed

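Total RNA of 12 samples was hybridised to Affymetrix mouse arrays as biotin-labelled cRNA, per the labels' protocols. For every probe set the authors deposited a log2 value, computed by RMA. The submitters' processing notes name Expression Console 1.1 of Affymetrix. RMA normalises the arrays to each other, which removes differences in total RNA, and compresses differences of dim probe sets. Genes came from 28898 probe sets with 1 platform symbol, and all 79 members matched RefSeq gene identifiers.

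A group-means model over all arrays was fitted to 12488 genes with limma 3.58.1 in R 4.3.3 (8 residual and 4.09 prior degrees of freedom), with 5 contrasts, Benjamini-Hochberg adjustment over all tested genes and a threshold of 0.05. The fit was also run on simulated data that took their gene means and spreads from these arrays. Errors of differences are standard errors or 95% confidence intervals of this fit. Counts without overlap and gene lists are described with no set test. P-values measure the spread between 3 independent experiments per group.

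A replicate number marks 1 independent experiment in both compartments, per the series' design text, and was taken as pairing the samples. Correlations of deviations from group means within a number were 0.0215 to 0.120 between compartments at 24 h, 0.0417 to 0.117 at 48 h, and 0.419 to 0.473 between outside arrays. The fit with numbers as a block was an alternative.

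The members and lists were chosen with earlier results of these data known. Genes named are, per contrast and complex, up to 3 called members in each direction, the core catalytic subunits, the isoform pairs, and up to 3 called genes per direction of each of 10 other lists. The lists covered assembly factors, electron carriers, the tricarboxylic acid cycle, biogenesis regulators, hypoxia targets, mitochondrially encoded subunits and markers of macrophages, neuroblastoma, fibroblasts and granulocytes. Alternatives changed the filter, the probe set per gene, the moderation, array weights, the block, the groups fitted, the scaling and the arrays kept.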

Additional observations from a re-analysis of the deposited data

Results flagged for a closer look

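A probe set of Atp5d that the comparisons did not use, since another set of this gene has the higher mean, was also higher in spheres than outside. It differed by 0.493 at 24 h and 0.449 at 48 h, with limma adjusted p = 0.00572 and 0.0074 over 20235 probe sets, so that its 48 h difference passed while that of the set used, at 0.28, did not. The sets may share transcripts and are not independent. No group was large enough for the test of single outlying arrays.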

How the results depend on the processing

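Each count of called members, with its number in each direction, was recomputed under 24 alternatives, 2 of them added after seeing the data: centring with in-sphere replicate 3 of 48 h left out, and a new quantile normalisation. Cox7a1 at both times and Ndufv3, Atp5d and Cox7a2l at 24 h kept their calls under all 24, and no called member changed sign. With numbers as a replicate block, 5 members were higher and 2 lower at 24 h and 2 and 6 at 48 h, and the block changed no member's call in these comparisons of spheres against outside. The 5 higher members at 24 h became 3 with the most variable probe set, with the groups compared alone, with either centring and with centring without in-sphere replicate 3 of 48 h, and the 2 lower became 5 with array weights, 1 with the groups compared alone and 4 in that centred fit. The 2 higher at 48 h became 4 with a 60th percentile filter, 4 with trended robust moderation, 7 with array weights, 6 with either centring and 1 when centred without in-sphere replicate 3. The 6 lower at 48 h became 10 with the most variable probe set and 0 with either centring. After the new quantile normalisation, 3 members were higher and 6 lower at 48 h. Leaving out single arrays gave 3 to 5 higher and 1 to 3 lower at 24 h, and 1 to 4 higher and 3 to 7 lower at 48 h, and 0 to 0 for both time contrasts and for the change between times. The 3 higher at 24 h came when 24 h lacked in-sphere replicate 1, outside replicate 1 or outside replicate 3, or without in-sphere replicate 2 of 48 h or any outside array of 48 h. The 1 lower came when 24 h lacked in-sphere replicate 3, outside replicate 1 or outside replicate 2, or without outside replicate 3 of 48 h. At 48 h, the 4 higher came without in-sphere replicate 1 of 24 h, the 1 higher without in-sphere replicate 1 or 2 or any outside array of that time, and the 3 lower without in-sphere or outside replicate 3. The cause was not tested. A fit on 2 arrays in 1 group assumes that they vary like the others. Signal near background limits what can be said of Cox4i2, Cox7b2, Cox8b and Ndufa4l2.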

Other observations

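Other probe sets of members, 56 in number, gave further values that the choice of the brightest set leaves out, and those named here were chosen after their values were seen. A dimmer set of Uqcr10, a small subunit of complex III, was lower in spheres by -0.47 at 24 h and -0.72 at 48 h (limma adjusted p = 0.0141 and 0.000849 over 20235 probe sets), while the set used differed by 0.14 and -0.034. A set of Ndufa12, an accessory subunit of complex I, was lower by -1.92 at 48 h (limma adjusted p = 0.00182), while the set used differed by -0.13 and a further set by 0.036. Dimmer sets of Ndufb4 and Ndufb8 were lower by -0.45 and -0.46 at 48 h (limma adjusted p = 0.0225 and 0.0412), where the sets used differed by -0.23 and 0.0044. The Ndufb4 set had a mean of 8.85 over the 12 arrays, against 9.01 for the set used. The Ndufb8 set had a mean of 3.74, against 9.38 for the set used. A second set of Cox7a2l was lower by -0.31 at 24 h (limma adjusted p = 0.0452), the direction of the set used, and a further set differed by -0.18 and did not pass (0.273).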
